A study of Homo sapiens with 27 samples.

Results

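Retained-intron transcripts are annotated RNAs in which sequence that other transcripts of the same gene splice out is kept inside an exon. All rows of the deposited transcript tables whose transcript type in GENCODE 29 is retained_intron were taken, which gave 26336 of 176241 transcripts, or 16.5% of the 159887 that matched the annotation. The rule reads the annotation and no measured value. These transcripts belonged to 9214 parent genes, of which 9094 were protein coding. A single member was listed for 3317 parent genes and 5 or more for 1637. MAN2C1, which encodes a cytosolic alpha-mannosidase, had the most, with 27.

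The study measured poly-A RNA in 27 libraries from 9 human cell lines with no treatment named in the labels, and 3 libraries per line, which the series design calls biological replicates. The labels do not say that the 3 came from separate cultures. The F-test and limma p-values are thus set against the spread between these libraries. The exact permutation tests used below compare the 3 libraries of a line with every choice of 3 libraries across lines. They treat libraries and not lines as units, and their reference includes differences between the other lines. Melanoma gave SK-Mel 24 and SK-Mel 28 (both labelled skin). U251 is a glioma line (brain), U2-OS an osteosarcoma line (bone), A549 a lung carcinoma line and Caco2 a colon carcinoma line. HepG2 is a liver carcinoma line, RT4 a bladder tumour line that the labels give as kidney, and BJ a fibroblast line that the labels give as epithelial. SK-Mel 24 grew in EMEM with 15% serum and streptomycin. Caco2, HepG2, SK-Mel 28 and U251 grew in EMEM, A549 and BJ in DMEM, and RT4 and U2-OS in McCoy medium, all with 10% serum and streptomycin. Between lines grown in different media, medium and line cannot be told apart. HepG2 is described apart from the other 8 lines throughout, because mitochondrial transcripts took a far larger share of its counts.

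Line markers matched the labels of SK-Mel 28, HepG2, Caco2, RT4 and BJ, and less clearly those of the other lines. PMEL, a melanosome protein, was at 9445 TPM (transcripts per 1000000, a length-corrected level) in SK-Mel 28 and at 3.18 in SK-Mel 24, while SOX10, a neural crest factor, was at 261 and 259 in these 2 lines. TYR (0.338 TPM) and MLANA (1.1) were low in SK-Mel 24. MITF was at 12.1 there, under A549 (17.8), BJ (16.3) and U2-OS (14.2). ALB was at 14240 TPM in HepG2, CDX2 at 59.1 in Caco2, UPK2 at 178 in RT4 and COL1A2 at 7633 in BJ. Of the lung genes, the surfactant genes SFTPC (0.440 TPM) and SFTPB (0.2) and NKX2-1 (0.0139) were near 0 in A549. KRT18 was at 5830 in A549 and at 4486 in Caco2. Of the osteoblast genes, SP7 (0.0228) and BGLAP (0.209) were near 0 in U2-OS. ALPL was at 3.58 there and RUNX2 at 12.5, under the 18.2 of U251. In U251 the glial genes SOX2 and FABP7 were at 40.5 and 128.5 TPM, but FABP7 was also at 112.5 in SK-Mel 24 and 49.3 in SK-Mel 28. GFAP was at 3.21 in U251, under the 8.82 of SK-Mel 24. The libraries held 15597117 to 32583547 estimated counts. The 13 mitochondrial transcripts took 71.1%, 33.8% and 32.6% of the counts in the HepG2 libraries and at most 5.72% in the others, and were set aside. TPM is given relative to the remaining transcripts.

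Introns are removed by the spliceosome, which recognises a 5′ splice site that nearly always begins with GT and a 3′ splice site that ends with AG. When an intron stays in a polyadenylated RNA, the RNA is often held in the nucleus or degraded, and genes for splicing factors are known to use this to set their own output. Many transcripts annotated as retained_intron are fragments, built from partial cDNA sequences, that begin or stop inside an intron. The deposited levels are estimates in which reads shared by overlapping transcripts are divided among them. A level given to a retained-intron transcript therefore does not by itself show reads inside an intron.

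Sequences of 11 introns held whole by members described below, and of 5 junctions at which a member starts inside an intron, show both forms. Each is on GRCh38, written 5′ to 3′ on the strand of the gene. In the whole introns the capitals mark the first 6 bases, which carry the 5′ splice site, and the final AG of the 3′ splice site. EIF1-205 (chr17:41689942-41690087, plus strand) belongs to the translation start factor EIF1, SRA1-205 (chr5:140557273-140557427, minus strand) to the steroid receptor RNA activator gene and ALDOA-217 (chr16:30067367-30067449, plus strand) to the glycolytic aldolase. These 3 are shown because their shares of the gene were not found to differ between lines. EEF1A1-207 (chr6:73518265-73518353, minus strand), MRPL53-204 (chr2:74472253-74472357, minus strand), the WDR54 transcript ENST00000482605.1 (chr2:74424976-74425074, plus strand), PTBP1-216 (chr19:804209-804291, plus strand) and the ZFC3H1 transcript ENST00000550963.1 (chr12:71610566-71610694, minus strand) are shown because theirs differed. MAT2A-203 (chr2:85541161-85541254, plus strand), MAT2A-205 (chr2:85542374-85542564, plus strand) and SRSF5-212 (chr14:69769252-69769510, plus strand) belong to genes known for regulated introns.
EIF1-205: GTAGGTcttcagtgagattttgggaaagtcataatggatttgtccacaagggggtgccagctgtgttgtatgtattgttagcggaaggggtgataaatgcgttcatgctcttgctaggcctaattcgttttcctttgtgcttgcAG
SRA1-205: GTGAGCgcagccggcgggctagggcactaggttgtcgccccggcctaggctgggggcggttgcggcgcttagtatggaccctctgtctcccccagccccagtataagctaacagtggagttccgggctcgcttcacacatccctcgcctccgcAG
ALDOA-217: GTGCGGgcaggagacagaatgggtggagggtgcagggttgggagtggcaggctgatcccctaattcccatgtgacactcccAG
EEF1A1-207: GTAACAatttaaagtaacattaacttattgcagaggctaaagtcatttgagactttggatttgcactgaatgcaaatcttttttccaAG
MRPL53-204: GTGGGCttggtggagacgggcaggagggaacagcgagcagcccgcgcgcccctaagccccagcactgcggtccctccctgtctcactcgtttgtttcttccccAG
WDR54: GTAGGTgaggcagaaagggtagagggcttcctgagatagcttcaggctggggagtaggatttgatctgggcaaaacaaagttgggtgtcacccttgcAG
PTBP1-216: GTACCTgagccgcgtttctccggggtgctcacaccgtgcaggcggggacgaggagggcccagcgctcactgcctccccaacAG
ZFC3H1: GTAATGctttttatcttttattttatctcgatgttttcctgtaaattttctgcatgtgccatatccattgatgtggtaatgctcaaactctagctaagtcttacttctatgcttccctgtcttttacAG
MAT2A-203: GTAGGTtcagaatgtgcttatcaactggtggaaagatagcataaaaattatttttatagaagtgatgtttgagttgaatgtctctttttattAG
MAT2A-205: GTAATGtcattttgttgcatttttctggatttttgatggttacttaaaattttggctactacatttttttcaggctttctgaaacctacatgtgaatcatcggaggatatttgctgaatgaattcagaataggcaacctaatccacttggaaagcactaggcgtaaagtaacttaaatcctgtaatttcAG
SRSF5-212: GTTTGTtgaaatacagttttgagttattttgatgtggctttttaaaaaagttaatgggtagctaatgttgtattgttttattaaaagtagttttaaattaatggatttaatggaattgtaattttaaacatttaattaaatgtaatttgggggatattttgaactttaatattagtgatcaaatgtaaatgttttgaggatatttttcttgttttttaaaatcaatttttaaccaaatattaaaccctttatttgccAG

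The 5 junctions give the last 40 intronic bases, with the AG of the 3′ splice site in capitals, and the first 20 bases of the exon that follows. They are shown because these members start upstream of the junction, inside the intron, and differed between lines. SNRNP200-208 (chr2:96284566-96284625, minus strand) starts 138 bases before its exon, the FAT1 transcript ENST00000500085.2 (chr4:186597152-186597211, minus strand) 60 bases, the DDB1 transcript ENST00000451943.6 (chr11:61302732-61302791, minus strand) 163 bases, the XPO1 transcript ENST00000481073.5 (chr2:61494072-61494131, minus strand) 652 bases and SF3B3-206 (chr16:70569966-70570025, plus strand) 91 bases. All bases of the FAT1 transcript, those before the junction included, also lie in exons of the gene's transcripts of other types, so that 0 of its bases set it apart from them.
SNRNP200-208: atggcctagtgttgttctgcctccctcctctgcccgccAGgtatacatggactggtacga
FAT1: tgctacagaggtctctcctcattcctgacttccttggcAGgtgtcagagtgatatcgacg
DDB1: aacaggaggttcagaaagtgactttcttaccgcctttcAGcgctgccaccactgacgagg
XPO1: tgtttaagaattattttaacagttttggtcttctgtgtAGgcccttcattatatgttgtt
SF3B3-206: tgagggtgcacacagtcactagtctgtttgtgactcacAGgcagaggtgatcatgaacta

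Most members did not contain a complete intron. An intron was counted as held whole when a protein-coding transcript of the gene splices it out, no exon of a protein-coding transcript covers it, it spans at least 50 bases and it lies inside an exon of the member. On this count 7283 members (27.7%) held a whole intron, 4881 of them 1 and 2402 of them 2 or more. Of the other 19053, 18389 had an end inside an intron of a coding transcript and 664 had neither. The median length of a member was 723 bases. A median of 34.2% of a member's bases lay outside all exons of the gene's transcripts of other types, protein-coding or not (quartiles 18.1% and 52.8%). No such base was found in 612 members, so that few reads could be assigned to many members alone. Other members of the same gene may share these bases.

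Introns held whole were short. The 9462 distinct retained introns had a median length of 267 bases, against 1842 bases for the 150621 other introns of the same genes. Introns of up to 150 bases made up 29.5% of the retained ones and 7.51% of the others. None of the retained introns reached 10000 bases, while 14.8% of the others did. First introns made up 9.48% of the retained and 16.1% of the other introns, internal introns 80.6% and 73.7%, and last introns 9.50% and 9.37%. These are properties of the annotation and were not tested.

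**Figure D1:**
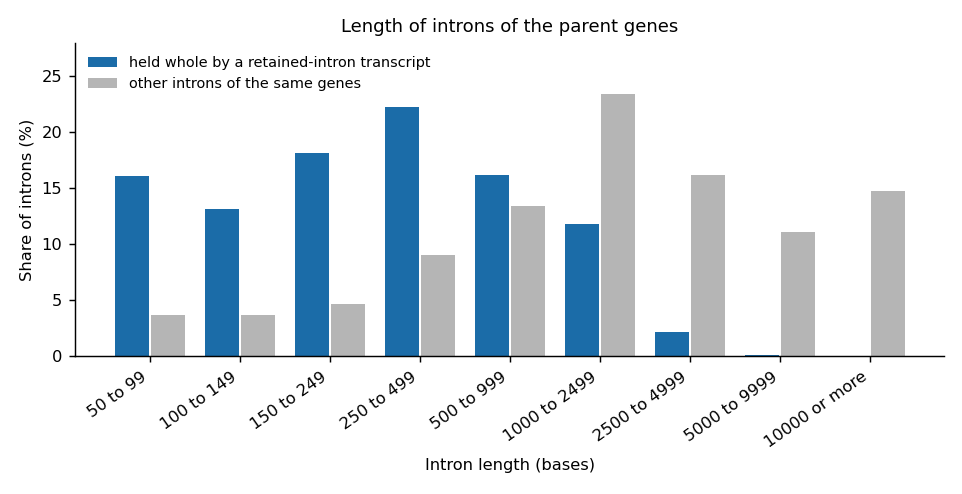
Bars give the share of introns (%) in 9 length classes (bases) for introns held whole by a retained-intron transcript (blue) and for the other introns of the same parent genes (grey). The blue bars are highest in the class that starts at 250 bases (22.3%) and the grey bars in the class that starts at 1000 bases (23.4%).

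The splice sites of these introns were of the common kind. Of the 9267 distinct retained introns with an extracted sequence, 98.2% ran from GT to AG, 1.21% from GC to AG, and 14 from AT to AC. The first 6 bases on the gene strand were GTGAGT in 1402 introns (15.1%) and GTAAGT in 710 (7.66%). Starts that pair with the minor spliceosome were rare, with GTATCCTT in 22 and ATATCCTT in 8. The median GC content was 56.8%. The length was a multiple of 3 in 31.5%, so most of these introns would shift the reading frame.

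Retained-intron RNA was concentrated in a few transcripts. Of the 26336 members, 1724 were at 0 in all 27 libraries, 8249 reached 1 TPM in the mean of at least 1 of the 8 lines, and 1239 did so in all 8. The 10 most abundant members of a line took 25.4% to 34.0% of its retained-intron TPM, and the top 100 took 48.4% to 58.5%. The members of 70 cytosolic ribosomal protein genes took 16.8% (SK-Mel 24) to 28.9% (Caco2). Members that held a whole intron took 12.5% to 14.9%.

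The 3 most abundant members had little sequence of their own. RPL8-204, from a gene of the large ribosomal subunit, averaged 1895 TPM over the 8 lines, the RPS23 transcript ENST00000504293.5 1728 and the RPL4 transcript ENST00000561775.5 1530. Only 6.28% of the bases of RPL8-204 lay outside exons of the gene's other transcript types, 13.5% in the RPS23 transcript and 8.67% in the RPL4 transcript. None of the 3 held a whole intron. SPARC-202, from a matrix glycoprotein gene, averaged 1209 TPM and ranged from 0.499 in RT4 to 3033 in SK-Mel 24. ACTG1-212, from the cytoplasmic gamma actin gene, averaged 1149 TPM with shares that varied widely within lines, from 4.70% to 19.1% in SK-Mel 24 and from 6.37% to 44.4% in SK-Mel 28. Among the next 10, RPS27A-208 (38.3% of its bases outside those exons), RPL32-207 (47.2%) and RPL35A-208 (44.9%) had more than the median member. Ribosomal protein, actin, tubulin and elongation factor genes have near-identical copies in the genome, among which the estimation may divide reads.

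Several of these transcripts made up most of their gene in every line. The RPS28 transcript ENST00000417088.2, of the small ribosomal subunit, took 69.4% (BJ) to 89.2% (SK-Mel 28) of its gene in the 24 libraries, with line means from 77.7% to 83.4%. RPL14-208 took 60.7% to 83.8%. OAZ1-208, from the antizyme gene that limits polyamine synthesis, took 56.2% to 72.5%. The RAB21 transcript ENST00000358546.3, from an endosomal GTPase gene, took 79.8% to 93.9%, and the MRPS34 transcript ENST00000569585.1, of the mitochondrial ribosome, 68.5% to 92.1%. LRRC75A-202 took 97.2% to 100%. The lines overlapped for each of these 6, and the limma F test on shares, adjusted by Benjamini-Hochberg over all transcripts, gave adjusted p from 0.137 (LRRC75A-202) to 0.958 (the MRPS34 transcript). None of the 6 held a whole intron.

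SRA1-205 was the exception that did. The gene makes both a protein and a functional RNA, and the retained form keeps the first intron of 155 bases printed above. It took 72.8%, 82.2% and 74.0% of the gene in A549, 70.4%, 66.5% and 64.4% in RT4 and 60.2%, 73.0% and 69.0% in BJ. Line means ran from 67.1% in RT4 to 78.8% in U2-OS. The ranges of the lines overlapped and the limma F test did not call a difference (adjusted p = 0.127).

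As a share of the library, retained-intron TPM was lowest in A549 and highest in Caco2 among the 8 lines. The A549 libraries had 3.97%, 3.58% and 3.68%, and the Caco2 libraries 5.11%, 5.36% and 4.57%. The mean of A549 was 3.75% ± 0.199 (SD, n = 3), that of SK-Mel 24 3.94% ± 0.106 and that of SK-Mel 28 4.10% ± 0.156. The other means were 4.44% ± 0.296 in BJ, 4.60% ± 0.204 in RT4, 4.63% ± 0.357 in U251, 4.68% ± 0.281 in U2-OS and 5.01% ± 0.403 in Caco2. The lowest Caco2 library overlapped BJ, RT4, U251 and U2-OS, and the highest A549 library overlapped SK-Mel 24 and SK-Mel 28. Neighbouring lines in this order overlapped.

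The lines differed in this share by more than the spread between their libraries. The highest mean was 1.34 times the lowest, with p = 0.00028 in a permutation test of the F statistic. In 2-sided exact permutation tests of each line against the other 7, adjusted over 8 lines, Caco2 was 0.705 percentage points higher (adjusted p = 0.0296) and A549 0.742 points lower (adjusted p = 0.0296). The other 6 lines did not pass, with adjusted p from 0.184 (SK-Mel 24) to 0.867 (BJ). Both calls were lost without the 10 most abundant members (0.494 and -0.372 points, adjusted p = 0.0632 and 0.138) and with whole introns alone (adjusted p = 0.0593 for each), that of Caco2 also with short transcripts left out (adjusted p = 0.0593) and that of A549 also in estimated counts (adjusted p = 0.148). Leaving out 1 library ended the Caco2 call for Caco2 replicate 1 (0.656 points), Caco2 replicate 2 (0.532), A549 replicate 2 (0.693) and A549 replicate 3 (0.700), and the A549 call for A549 replicate 2 (-0.662), A549 replicate 3 (-0.711) and Caco2 replicate 1 (-0.735).

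The position of a member in its gene separated 2 patterns. Members were divided by whether their exons overlap the last exon of the gene's longest protein-coding transcript: 7857 of 26081 placed members (30.1%) did. The rest, which do not overlap it, are called members that end before it here and below, also in other transcript classes. Some of them do not end before it in the plain sense. The KRT8 transcript described below lies past the end of the coding transcript, and MZT2A-204 reaches its end. This division was chosen after the values were seen. Members that overlap the last coding exon made up 1.84% ± 0.112 of the library in A549. SK-Mel 24 had 2.08% ± 0.0758 and SK-Mel 28 had 2.16% ± 0.132. The other lines had 2.46% ± 0.129 in U2-OS, 2.58% ± 0.154 in U251, 2.69% ± 0.285 in RT4, 2.80% ± 0.563 in BJ and 3.28% ± 0.666 in Caco2. The highest mean was 1.78 times the lowest (permutation p = 0.00102), and Caco2 was 0.908 points above the others (exact permutation adjusted p = 0.0435). For members that end before the last coding exon the means lay between 1.63% (BJ) and 2.21% (U2-OS), the ratio was 1.36 (permutation p = 0.164), and no line passed the exact permutation test.

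**Figure D2:**
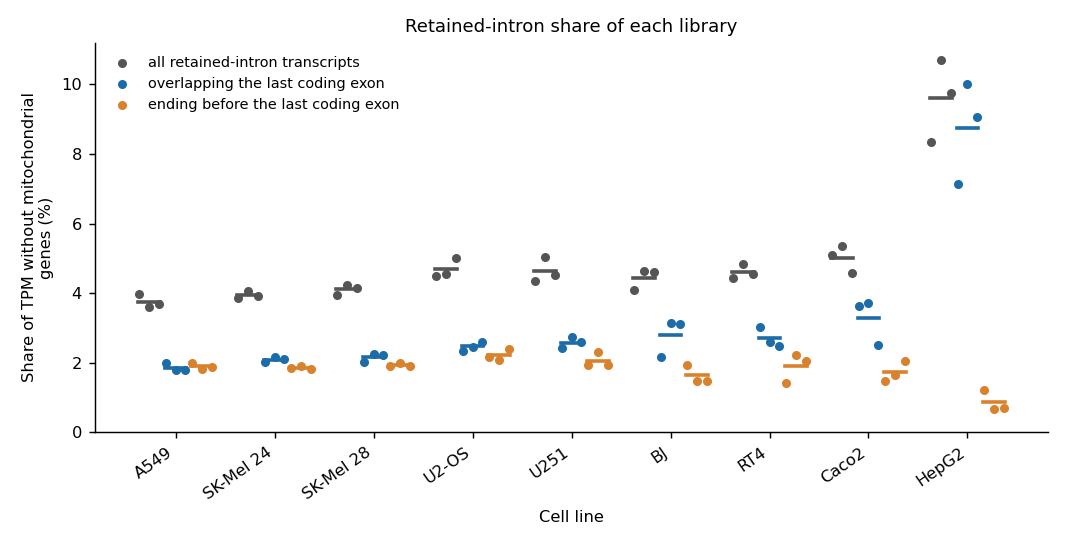
Points are libraries and bars line means of the retained-intron share of library TPM (%), mitochondrial transcripts set aside, for all members and for members that overlap or end before the last coding exon. The 3 HepG2 libraries lie at 8.35% to 10.7% for all members, above every other library, and below every other library for members that end before the last coding exon.

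HepG2 stood far from the other lines in opposite directions for the 2 kinds of member. Retained-intron transcripts took 8.35%, 10.7% and 9.77% of its libraries (9.61% ± 1.18, n = 3), 5.21 points more than the mean of the other 8 lines (exact permutation p = 0.000342, the smallest that 2925 choices allow). Members that overlap the last coding exon took 7.13%, 10.0% and 9.07%, against at most 3.72% in any other library. Members that end before it took 1.21%, 0.676% and 0.686%, against at least 1.40% elsewhere, a fall of 1.04 points (exact permutation p = 0.000342). With mitochondrial transcripts kept in the total, the HepG2 libraries ran from 1.76% to 6.17%, and the difference for all members was 0.344 points and no longer called (exact permutation p = 0.426). Protein-coding transcripts made up 71.6% ± 1.32 of HepG2 TPM and 82.1% to 86.0% of that of the other lines, and processed_transcript entries 8.19% ± 0.349 and 3.87% to 4.75%.

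Within the parent gene, RT4 had the highest share. Among the 4048 parent genes with 5 TPM or more in all 24 libraries (43.9% of 9214), the median retained-intron share of gene TPM was 2.79%, 3.42% and 3.44% in the RT4 libraries. It was 1.78%, 1.65% and 1.62% in A549. The line means were 1.68% ± 0.0824 in A549, 1.77% ± 0.0468 in SK-Mel 28, 2.01% ± 0.290 in SK-Mel 24, 2.01% ± 0.329 in BJ, 2.60% ± 0.478 in U251, 2.76% ± 0.114 in Caco2, 2.79% ± 0.175 in U2-OS and 3.22% ± 0.367 in RT4. The lowest RT4 library lay within the range of U251, Caco2 and U2-OS. RT4 was 0.983 points above the other lines (exact permutation adjusted p = 0.0158), A549 was 0.769 points below them without passing (adjusted p = 0.083), and the ratio of the highest to the lowest mean was 1.91 (permutation p = 9e-05). The RT4 call was lost without RT4 replicate 2 (0.882 points) or RT4 replicate 3 (0.873 points, adjusted p = 0.0971 for each). Over the 3373 genes at 5 TPM in all 27 libraries, HepG2 was at 1.89% ± 0.356, inside the range of the other lines.

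Caco2 and RT4 differed from the rest in the members at the gene's end. For members that overlap the last coding exon, the median over genes that have one was 2.08% ± 0.0939 in RT4 and 1.99% ± 0.376 in Caco2, against 0.759% (SK-Mel 28) to 1.37% (U2-OS) in the other 6 lines. RT4 was 0.894 points and Caco2 0.789 points above the other lines (exact permutation adjusted p = 0.0296 for each). For members that end before it, Caco2 was at 1.27% ± 0.256 and differed from the others by -0.042 points (exact permutation adjusted p = 0.845), and RT4 was at 1.70% ± 0.368 (0.455 points, adjusted p = 0.0949). U2-OS also had 1.70% ± 0.0596 for these. Across genes, 1142 of the 4048 had a mean retained-intron share under 1%, 1919 had 1% to 10%, 900 had 10% to 50% and 87 had 50% or more.

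**Figure D3:**
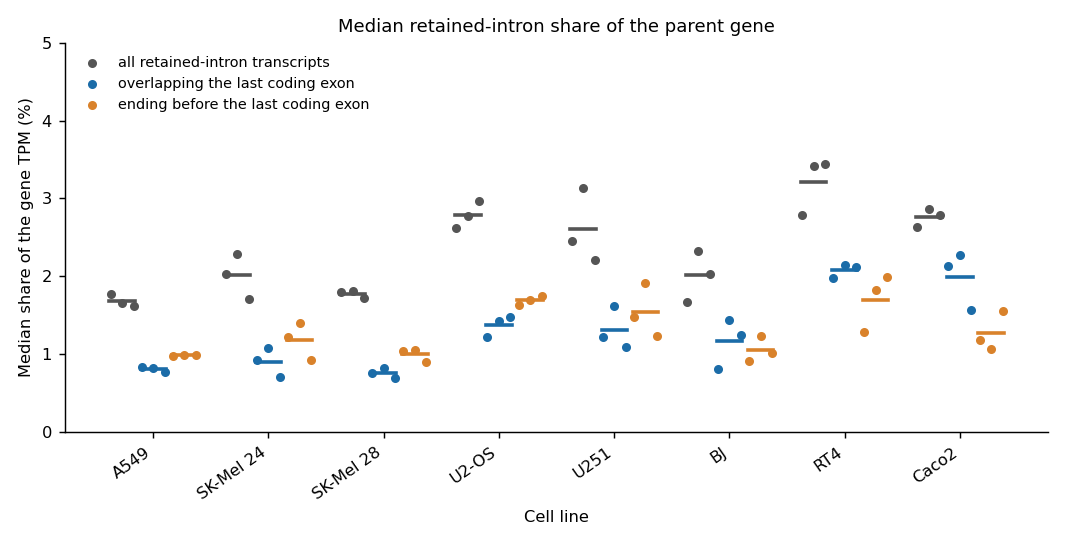
Points are libraries and bars line means of the median retained-intron share of gene TPM (%) over parent genes at 5 TPM or more in the 24 libraries of 8 lines, for all members (grey), those overlapping the last coding exon (blue) and those ending before it (orange). RT4 and Caco2 have the highest blue means, 2.08% and 1.99%.

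Retained-intron transcripts were called as different between lines less often than transcripts as a whole, by level and by share. The edgeR quasi-likelihood F test over the 8 lines, on rounded estimated counts, called 4246 of 9302 tested members (45.6%) at an adjusted p under 0.05, where 58.6% of all 67775 transcripts tested were called. The corresponding values were 64.4% for protein_coding, 52.1% for processed_transcript and 41.1% for nonsense_mediated_decay transcripts. The share of the gene was tested with limma on the arcsine square root scale for transcripts with a mean share of 1% or more in genes at 5 TPM or more, and a call needed an adjusted p under 0.05 and line means at least 10 percentage points apart. It called 598 of 5150 members (11.6%), where 21.7% of all 33238 transcripts tested were called. Protein_coding transcripts were called in 26.5%, processed_transcript in 16.5% and nonsense_mediated_decay in 13.8%. A member whose share stays under 10% in every line cannot be called, and the median share of tested members was 2.62%. The part of share size and of level in these call rates was not tested. At an adjusted p under 0.05 with no threshold on size, 25.9% of the members and 33.4% of all transcripts passed, with 37% of protein_coding, 29.7% of processed_transcript and 27.4% of nonsense_mediated_decay transcripts. Of the 598 called members, Caco2 had the highest mean in 43.0%, RT4 in 68 members, U2-OS in 67 and SK-Mel 28 in 59.

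A smaller part of the members that held a whole intron was called. Of the 1362 tested members with a whole intron, 100 were called (7.34%), and of the 3788 without one, 498 (13.1%). Their median shares were 2.28% and 2.79%, and the part of share size in these counts was not tested. Members with more sequence of their own had lower shares. The median share was 5.65% for the 879 members with under 10% of their bases outside exons of the gene's other transcript types. It was 3.12% from 10% to 30%, 2.14% from 30% to 50% and 1.94% for the 1012 above 50%. These groups also differ in how uniquely reads can be assigned, and the part of that in the counts was not tested.

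Caco2 accounted for the largest numbers of calls against the other 7 lines. In Caco2 297 members were higher (5.77%) and 93 lower (1.81%). Of all transcripts tested 6.1% were higher and 5.76% lower, so higher calls were near the background and lower calls under it. A lower call needs a fall of 10 points, which a member under 10% in the other lines cannot make. The median share of tested members was 2.62%, so many could not be called lower in any line. The part of this limit in the counts was not tested. RT4 had 99 members higher (1.92%) and 27 lower (0.524%), where 2.57% and 2.19% of all transcripts were. U2-OS had 39 higher (0.757%) and 29 lower (0.563%), where the background was 1.87% and 1.99%. These 3 lines and BJ had more members higher than lower, but at a gene minimum of 20 TPM U2-OS had 11 higher and 12 lower. BJ had 33 higher (0.641%) and 18 lower (0.35%), with a background of 1.91% and 1.21%. SK-Mel 24 had 21 (0.408%) and 26 (0.505%) against 1.46% and 1.03%, and SK-Mel 28 had 28 (0.544%) and 31 (0.602%) against 2% and 1.5%. A549 had 15 (0.291%) and 20 (0.388%) against 1.05% and 0.737%, and U251 had 7 (0.136%) and 8 (0.155%) against 0.71% and 0.626%. With the number after P in the titles as a covariate SK-Mel 24 had 12 higher and 4 lower and SK-Mel 28 17 and 10, so the order turned in both. In these 7 lines the members were called less often than the background in both directions. The count for Caco2 rested on which libraries were used: without its replicate 2 it was 124 higher, and without its replicate 3 it was 412. In RT4 it was 38 without its replicate 1.

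In Caco2 direction went with position, and the order differed between lines. Of the 297 members higher in Caco2, 261 overlap the last coding exon (87.9%), against 38.2% of all members tested, and of the 93 lower ones, 16 do (17.2%). The higher members started at a median of 52.4% along the coding transcript and the lower ones at 7.94%, where all tested members started at 25.5%. In RT4 75 of 99 higher members overlap the last coding exon and 13 of 27 lower ones (48.1%). In BJ 22 of 32 placed higher members do and 6 of 17 placed lower ones (35.3%). In A549 the order was the other way, with 4 of 15 higher and 16 of 20 lower members overlapping it, and in U2-OS 14 of 39 higher and 21 of 29 lower. So it was in SK-Mel 24, with 7 of 21 higher and 18 of 26 lower, and in SK-Mel 28, with 11 of 27 placed higher and 20 of 31 lower. The lines that these were set against include Caco2 and RT4, and the part of that in the order was not tested. The smaller counts of U251, 4 of 7 higher and 5 of 8 lower, showed no such order.

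**Figure D4:**
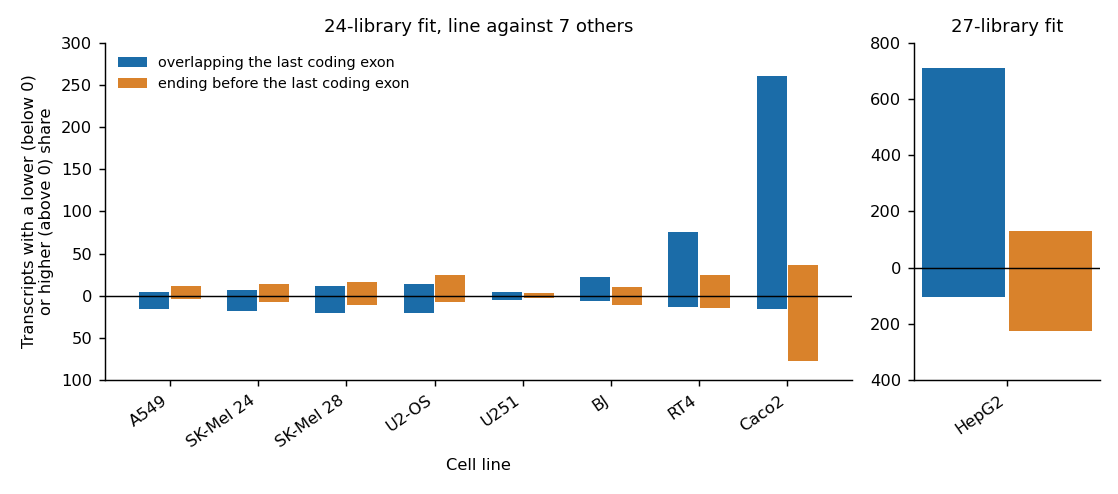
Bars above 0 count members with a higher and bars below 0 members with a lower share of their gene in a line, for members that overlap the last coding exon (blue) and members that end before it (orange). HepG2 comes from a fit of all 27 libraries and has its own axis, and Caco2 has 261 blue members above 0 and 77 orange members below.

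The same direction was seen in other transcript classes, so it was not particular to retained-intron transcripts. Among processed_transcript entries, Caco2 had 195 higher and 33 lower that overlap the last coding exon, and 65 higher and 84 lower that end before it. Among nonsense_mediated_decay entries it had 163 higher and 52 lower, and 12 higher and 15 lower. The shares of members that overlap the last coding exon were summed per gene and averaged over genes, for 3671 members of 2165 genes at 5 TPM in all 27 libraries. This mean summed share ran from 4.89% in A549 to 9.14% in Caco2 among the 8 lines. For processed_transcript entries it ran from 8.50% in A549 to 11.9% in Caco2.

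Libraries of the same line differed in this measure, and the length of the transcripts that carried the signal differed with it. The mean summed share of members that overlap the last coding exon was 10.1%, 10.7% and 6.63% in the Caco2 libraries. It was 9.38%, 7.54% and 6.96% in RT4, and 5.16%, 6.79% and 6.70% in BJ. The median effective length, weighted by TPM, was 716, 656 and 740 bases in Caco2 and 676, 733 and 743 bases in RT4. It was 829, 945 and 928 bases in BJ and 790 to 1005 bases in the other 5 lines. Within Caco2 and RT4 the libraries with the shortest length had the highest share, and within BJ the library with the shortest length had the lowest. The part of RNA length in the calls was not tested.

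Among spliceosome genes, SNRNP200-208 was higher in Caco2 and RT4. SNRNP200 encodes the helicase that unwinds the U4 and U6 RNAs, and this member covers the end of the gene from inside an intron. It took 74.0%, 76.0% and 42.8% of the gene in Caco2, 68.2%, 48.2% and 43.1% in RT4 and 26.9%, 47.5% and 41.8% in BJ. The 15 libraries of the other 5 lines lay between 3.99% and 21.5%, below every BJ, RT4 and Caco2 library. Caco2 was 43.9 points and RT4 31.2 points above the other lines (limma adjusted p = 3.84e-05 and 0.00129). The HepG2 libraries were at 90.9%, 96.8% and 95.6%.

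SF3B3, a subunit of the U2 particle, held members that moved in opposite directions. SF3B3-206, which starts 91 bases inside an intron and reaches the last exon, took 65.0%, 65.5% and 37.1% in Caco2, 58.0%, 40.5% and 37.2% in RT4 and 24.5% to 29.2% in A549, both SK-Mel lines, U2-OS and U251. SF3B3-214, which ends before the last exon, took 2.34%, 2.36% and 12.6% in Caco2 and 14.6% to 23.9% in those 5 lines. Neither Caco2 nor RT4 overlapped those 5 lines for either member. BJ is left out of these ranges, so this separation does not cover all lines. BJ differed from the other lines in the direction of Caco2 and RT4, by 3.78 points for SF3B3-206 (limma adjusted p = 0.653). For SF3B3-214 it differed by -1.59 points. In Caco2 SF3B3-206 was 24.9 points higher and SF3B3-214 fell by 11.0 points (limma adjusted p = 0.000626 and 0.00061). SF3B3-204 and SF3B3-212, which also end before the last exon, were not found to differ over the 8 lines (limma adjusted p = 0.893 and 0.702).

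The translation factor EIF3L, a subunit of the factor that brings the small ribosomal subunit to mRNA, gave another such pair. EIF3L-213 took 50.9%, 58.5% and 39.1% in Caco2 and 13.9% to 32.0% in A549, both SK-Mel lines, U2-OS and U251. BJ and RT4 are left out of the ranges given for this pair. EIF3L-212 took 10.3%, 13.0% and 41.4% in Caco2, so that replicate 3 lay within the 38.7% to 48.4% of those 5 lines. EIF3L-213 was 21.9 points higher in Caco2 (limma adjusted p = 0.000494) and EIF3L-212 fell by 19.3 points (limma adjusted p = 0.0178), although over the 8 lines EIF3L-212 missed the threshold (limma F test, adjusted p = 0.058). In HepG2 EIF3L-212 was listed at 0 in all 3 libraries and EIF3L-213 took 16.9%, 16.9% and 20.9%. Across genes with both kinds of member tested, 5 of 810 had one that overlaps the last exon higher and one that ends before it lower in Caco2, and 1 had the reverse. These numbers were 0 and 0 of 810 in RT4, and 50 and 4 of 750 in HepG2.

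Among called members of genes at 20 TPM or more, the FAT1 transcript had the widest gap between line means, 71.0 points, and the DDB1 and XPO1 transcripts were among the 15 widest. The FAT1 transcript, from a gene for a giant cadherin, took 82.1%, 69.7% and 61.7% in Caco2 and 74.8%, 47.1% and 54.4% in RT4. In SK-Mel 24 it was near or at 0, with at most 0.532%, and the other 5 lines lay between 9.07% and 32.4%. The FAT1 transcript was 47.7 points higher in Caco2 and fell by 33.4 points in SK-Mel 24 (limma adjusted p = 2.69e-06 and 2.39e-06). The DDB1 transcript, of a damage-binding ubiquitin ligase, took 54.9%, 57.9% and 17.1% in Caco2 and at most 2.88% in A549, both SK-Mel lines, U2-OS and U251. The XPO1 transcript, of the nuclear export receptor, took 53.7%, 61.0% and 11.5% in Caco2 and at most 0.884% in those 5 lines. BJ is not among those 5 lines. It was 3.95 points above the other lines for the DDB1 transcript and 4.04 for the XPO1 transcript (limma adjusted p = 0.293 and 0.590). In both genes Caco2 replicate 3 lay well under the other Caco2 libraries, and replicate 1 was the highest RT4 library.

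Of the 3180 tested members that end before the last coding exon, 77 were lower and 36 higher in Caco2, and 14 were lower and 24 higher in RT4. Some members near the start of their gene had low shares in these lines. The ACTN4 transcript ENST00000588618.5, from the actin cross-linker alpha-actinin, took 0.579%, 0.00% and 20.9% in Caco2 and 0.34%, 19.8% and 19.6% in RT4. It took 24.3% to 29.5% in A549, both SK-Mel lines, U2-OS and U251, above every Caco2 and RT4 library. BJ is left out of this range and of the next one. CCT5-206, of a chaperonin that folds actin and tubulin, took 16.1%, 15.6% and 26.5% in Caco2 and 29.7% to 34.9% in those 5 lines, and fell by 12.2 points in Caco2 (limma adjusted p = 0.000887). The GGA2 transcript ENST00000567201.5, of a sorting adaptor of the Golgi, took 0.00%, 3.15% and 19.5% in Caco2 and fell by 25.2 points (limma adjusted p = 0.00658). The SCAMP2 transcript ENST00000569251.5, of a secretory carrier membrane protein, overlaps the last exon and starts 4.24% along the coding transcript. It was listed at 0 in all 3 RT4 and all 3 HepG2 libraries and took 13.0% to 54.0% in the 18 libraries outside RT4, Caco2 and HepG2.

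**Figure D5:**
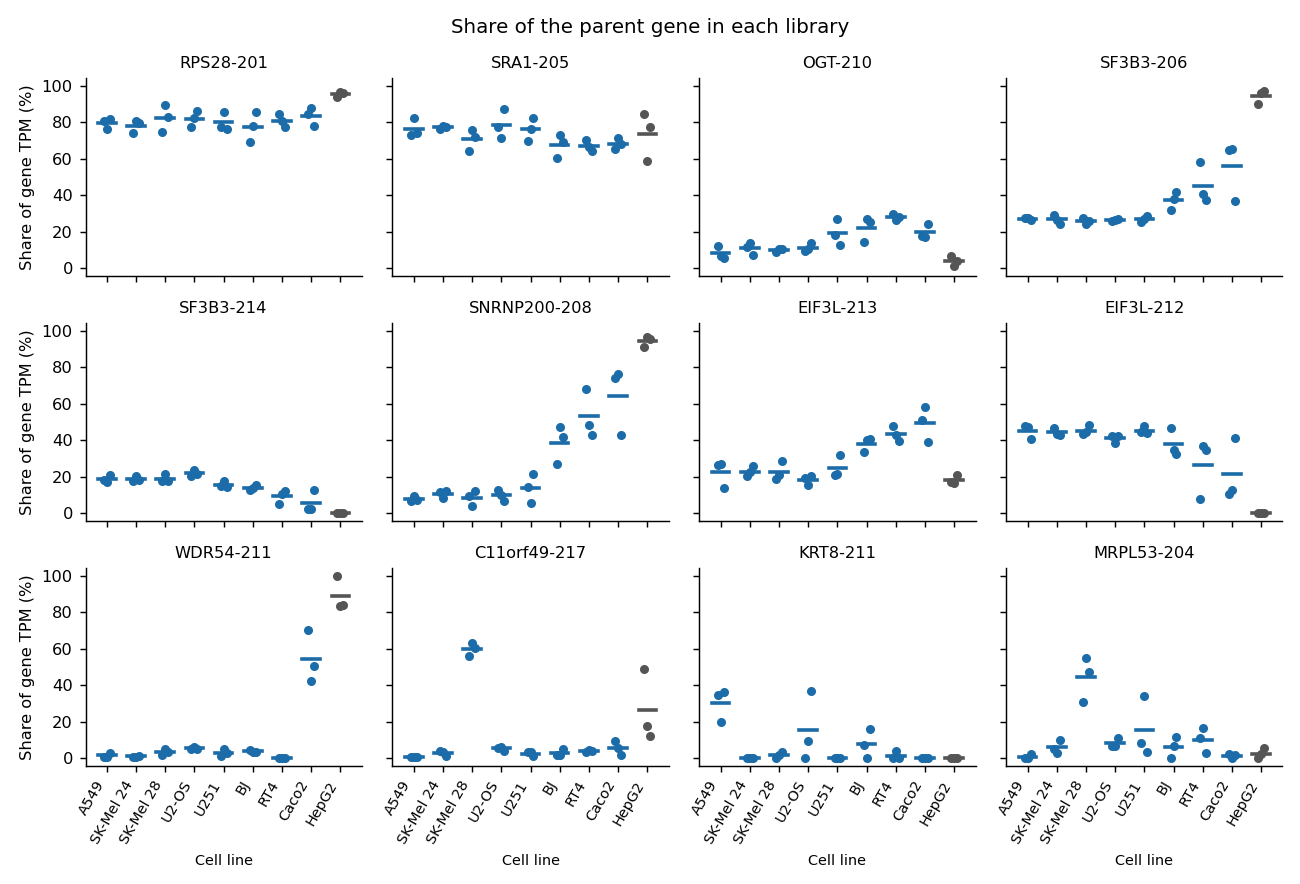
Each panel gives the share of gene TPM (%) of 1 retained-intron transcript in each library (points) with line means (bars), HepG2 in grey. SNRNP200-208 and SF3B3-206 are highest in Caco2 and RT4 among the 8 lines while SF3B3-214 and EIF3L-212 have their lowest means there, and the C11orf49 transcript ENST00000531648.5 is high in SK-Mel 28.

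Some members were high in a single line. The C11orf49 transcript took 56.1%, 63.3% and 60.3% of its gene in SK-Mel 28 and at most 9.48% in the 21 other libraries outside HepG2. The groups did not overlap, and the difference was 56.5 points (limma adjusted p = 1.25e-11). This member starts at the first base of the coding transcript and ends before the last exon. Of its bases, 73.1% lie outside exons of the gene's other transcript types. MRPL53-204, which keeps the last intron of a mitochondrial ribosomal protein gene, took 30.8%, 54.8% and 47.1% in SK-Mel 28. U251 replicate 2 reached 34.2%, above the lowest SK-Mel 28 library, and the other libraries of the 8 lines at most 16.8%. It was 37.4 points higher in SK-Mel 28 (limma adjusted p = 0.000317).

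The WDR54 transcript keeps intron 7 of a gene for a WD-repeat protein, the 99 bases printed above. It took 70.4%, 42.5% and 50.7% of the gene in Caco2 and at most 6.23% in the other 21 libraries of the 8 lines. The Caco2 libraries lay above all of these, by 52 points on average (limma adjusted p = 6.81e-10). In HepG2 it took 100%, 83.3% and 84.0%. Its level was 9.95 TPM in Caco2 and 10.0 in HepG2.

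Among members higher in A549 were KRT8 and BNIP2 transcripts. The KRT8 transcript ENST00000549176.1, from the gene for the epithelial keratin 8, took 34.6%, 19.8% and 36.1% in A549 at a mean of 1686 TPM. A single U2-OS library reached 36.8%, so the groups overlapped, and the difference was 26.4 points (limma adjusted p = 0.00242). BNIP2-207, of a BCL2-interacting protein, took 14.9%, 16.1% and 25.4% in A549, above the 9.69% of the next library, and was 16.8 points higher (limma adjusted p = 1.76e-07). WARS-237, of the tryptophanyl-tRNA synthetase, was higher in 3 lines than in every library of the others: 15.2%, 16.2% and 17.8% in U251, 9.54% to 17.6% in SK-Mel 24 and 12.2% to 14.2% in SK-Mel 28. It was at 0 in A549 and U2-OS, and reached 7.07% in BJ and 5.57% in Caco2.

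In the other lines the named members were as follows. MZT2A-204, of a centrosomal protein gene with a near-identical copy, took 38.4%, 54.5% and 46.0% in SK-Mel 24 and at most 32.2% elsewhere outside HepG2. FNTB-203, of the farnesyltransferase beta subunit, took 38.5%, 34.8% and 43.4% in SK-Mel 24, and 1 Caco2 library at 34.6% came close. The PSMB10 transcript ENST00000570985.1, of an immunoproteasome subunit, took 76.4%, 73.0% and 83.0% in U2-OS and 31.4%, 25.2% and 21.3% in RT4. These 2 lines did not overlap, although 1 Caco2 library at 75.1% lay among those of U2-OS, and the differences from the other lines were 28.4 and -30.5 points (limma adjusted p = 0.000871 and 0.000557). TTC3-215, of a ubiquitin ligase gene, took 7.04%, 2.11% and 6.18% in U2-OS, below the 12.5% to 66.2% of the other 7 lines. HERC2-208 took 17.0%, 31.3% and 53.2% in BJ and 5.91% to 20.4% in RT4 and was listed at 0 in the other 6 lines, while HERC2-205, at the start of the same gene, fell by 18 points in BJ (limma adjusted p = 0.0415). HERC2 has partial copies in the genome.

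The counts for gene lists are read against the 11.6% of all tested members that were called over the 8 lines, and no list was tested against that share. The lists were chosen with earlier results of these data known. Of the SR proteins, which bind exons and recruit the spliceosome, 17 members were tested by share and 0 were called over the 8 lines by limma, although 1 was lower in Caco2. SRSF3-206, which lies at the start of its gene, took 31.9% to 34.7% in A549 and 27.4% to 32.0% in U251. In Caco2 it took 8.62%, 27.1% and 27.1%, and fell by 11.0 points (limma adjusted p = 0.0472). SRSF5-212, with the last intron printed above, had line means from 3.43% in SK-Mel 28 to 7.24% in U2-OS, and SRSF2-206 from 9.76% to 24.8%. The CLK1 transcript ENST00000473565.5 holds 3 introns of a kinase that phosphorylates SR proteins, and its line means ran from 5.02% to 8.36%. The limma F test gave adjusted p of 0.374, 0.325 and 0.806 for these 3. Of 9 tested members of the CLK and SRPK kinases, 1 was called, SRPK1-213, at 23.0%, 21.7% and 22.4% in U2-OS and listed at 0 in all 3 BJ libraries.

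Genes known for introns that are detained in the nucleus were few. Of 4 tested members of OGT, OGA and MAT2A, 1 was called. OGT-210, from the enzyme that adds N-acetylglucosamine to nuclear proteins, took 29.8%, 26.4% and 28.1% in RT4 and 12.1%, 7.02% and 5.80% in A549, which did not overlap. RT4 was 13.5 points higher and A549 fell by 9.13 points against the other lines (limma adjusted p = 0.00454 and 0.0432), where the second is under the 10 points a call needs. MAT2A-205 and MAT2A-203, from the enzyme that makes S-adenosylmethionine, had line means of 2.30% to 6.18% and 0.546% to 2.36% and were not called (limma F test, adjusted p = 0.0629 and 0.158).

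The hnRNP proteins coat nascent RNA, and 3 of the 16 tested members of their genes were called over the 8 lines. Each of the 3 had its lowest mean in Caco2, by less than the 10 points that a call against the other lines needs. PTBP1-216, which keeps an intron of 83 bases in the gene for the polypyrimidine tract binding protein, took 1.59%, 0.00% and 3.96% in Caco2 and 4.91%, 5.19% and 5.50% in RT4. The other 6 lines lay between 5.44% and 24.6%, above every Caco2 library. HNRNPL-207 took 1.59%, 1.77% and 5.17% in Caco2 and 4.49% to 18.6% in the 6 lines other than Caco2 and RT4. HNRNPC-207 was at most 0.127% in Caco2 and 11.3% to 12.7% in SK-Mel 24. The limma F test gave adjusted p of 0.0128, 0.000972 and 0.0469 for these 3.

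In the nuclear RNA decay list, 3 of 13 tested members were called, where 11.6% of all tested members were, with 3 higher in RT4 and 2 in Caco2, where 1.92% and 5.77% of all tested members were. The ZFC3H1 transcript keeps the last intron of a gene whose product sends nuclear RNA to the exosome. It took 37.5%, 31.5% and 16.0% in Caco2 and 37.6%, 19.2% and 22.1% in RT4. In A549, both SK-Mel lines, U2-OS and U251 it took 0.00% to 16.9%, a range that leaves out BJ. The ZCCHC8 transcript ENST00000538116.5, of the exosome targeting complex, took 30.7%, 44.2% and 5.04% in Caco2 and 30.4%, 19.6% and 15.3% in RT4, above the 0.00% to 11.5% of the other 6 lines except for Caco2 replicate 3. Among the nonsense-mediated decay factors, 4 of 17 tested members were higher in Caco2 (5.77% of all tested members were), and 1 of the 17 was called over the 8 lines. EIF4A3-208, of the exon junction complex, took 26.2%, 32.0% and 4.06% in Caco2. The CASC3 transcript ENST00000394114.2, of the same complex, took 52.1%, 42.3% and 0.412% in Caco2 and 48.9%, 3.54% and 6.03% in RT4, and missed the threshold over the 8 lines (limma F test, adjusted p = 0.0579).

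In the other lists the share called lay on both sides of the 11.6% of all tested members. It was lower for the U1, U2 and minor spliceosome genes, with 5 of 53 tested members called (3 higher and 2 lower in Caco2), for the nuclear speckle genes, with 3 of 59, and for cytosolic ribosomal proteins, with 0 of 21 called by limma on shares. On levels edgeR called 58 of 175 members of the ribosomal protein genes, where 45.6% of all tested members were called. It was higher for translation factors (5 of 30), glycolytic enzymes (2 of 8), cytoskeletal genes (3 of 13), chaperones (4 of 14) and aminoacyl-tRNA synthetases (3 of 17), each a small count. The median shares of the lists lay between 1.76% (nuclear RNA decay) and 5.63% (translation factors), against 2.62% over all 5150. Of the genes that mark the lines, none reached the filter in all 24 libraries, and 28 of 28 of their members tested by level were called. These genes were picked because they mark lines, so this count follows from the choice. ALDOA-214, at the end of the aldolase gene, was one of the glycolytic calls, with 39.2%, 26.1% and 30.0% in RT4 and 0.246% to 2.54% in A549. ALDOA-217, with the 83-base intron printed above, had line means from 1.23% to 2.94%.

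In HepG2, 840 of 4569 tested members had a higher share (18.4%) and 330 a lower one (7.22%), where 17.8% and 19.5% of all 27950 transcripts tested did. Of the higher members 709 overlap the last coding exon, 84.5% of those placed, and of the lower ones 103 do, 31.3%, against 42.4% of all tested. The median effective length was 748, 600 and 590 bases in these libraries, and its part in the calls was not tested. Among processed_transcript entries that overlap the last coding exon, 560 were higher and 164 lower.

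The most abundant members described in HepG2, and those with the largest called increases in share, overlap the last coding exon. C3-216, of the complement protein that the liver secretes, reached 5595 TPM and took 78.7%, 70.3% and 62.7% of the gene. EEF1A1-207, which keeps intron 6 of the elongation factor gene (89 bases, printed above), reached 4392 TPM and took 6.07%, 33.5% and 32.4%, against at most 2.43% in any other library. Replicate 1 of HepG2 was thus well under the other HepG2 libraries and still above all other lines. EIF3C-208 reached 4332 TPM and took 96.5%, 94.9% and 93.1%. EIF3C has a near-identical copy next to it, so its reads may be divided. SND1-214, of an RNA-binding nuclease, took 82.5%, 94.6% and 93.3% in HepG2, 18.7%, 16.7% and 0.230% in Caco2 and at most 0.558% elsewhere. The difference of 88.5 points was the largest called increase in HepG2 (limma adjusted p = 1.66e-14). DIAPH1-208, of an actin-nucleating formin, took 81.3%, 95.9% and 93.4%, and POR-222, of the electron donor of the cytochrome P450 enzymes, 84.8%, 96.2% and 93.9%.

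Of 2630 tested members that end before the last exon, 130 were higher in HepG2 and a larger number lower, and most were not called. SF3B3-214, EIF3L-212, the ACTN4 transcript, the GGA2 transcript and HNRNPC-207 were listed at 0 in all 3 libraries. SRSF3-206 took 4.86%, 0.00% and 0.00%, 28.9 points under the other lines (limma adjusted p = 1.91e-08), and the NPM1 transcript ENST00000523339.1, of nucleophosmin, 0.00%, 0.00% and 0.154%, 24 points under them (limma adjusted p = 9.23e-10). RPL32-207, near the start of its gene, took 9.56%, 6.85% and 8.22%, against 26.5% to 32.1% in the other 24 libraries. Some members that overlap the last exon were lower too: OGT-210 took 7.04%, 1.41% and 4.08%, 12.1 points under the other lines (limma adjusted p = 5e-05). TUBA1C-203, of an alpha-tubulin gene, was at 0.680%, 0.00% and 0.00% against 14.7% to 36.3% elsewhere.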

How the data were processed

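RNA from 27 libraries of 9 cell lines was extracted with RNeasy and made into stranded poly-A libraries, per the labels' protocols. The authors deposited, per transcript and library, an estimated count and a TPM value. GRCh38, kallisto 0.43.1 and CASAVA 1.8 are listed in the submitters' processing notes. No source used here gives the annotation release of the index. The transcript IDs were matched to GENCODE 29, and 16354 (9.28%) found no match and were kept only in library totals. That this transcript class was taken, and the gene lists, were chosen with earlier results of these data known. The parallel proteomics was not analysed here.

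Levels were TPM after 13 mitochondrial transcripts were set aside, and shares were of the summed TPM of the gene. Lines were compared with exact permutation tests (2024 choices of 3 of 24 libraries, adjusted over 8 lines by Benjamini-Hochberg) and with a permutation test of F (100000 resamples). Estimated counts were rounded and tested with edgeR 4.0.16 (TMM, quasi-likelihood F test, R 4.3.3). Shares were tested with limma 3.58.1 on the arcsine square root scale, with a robust trend, in genes of 2 or more transcripts at 5 TPM in all libraries and for mean shares of 1% or more. HepG2 was compared in a fit of all 27 libraries. The tests were checked on simulated data. Named members were the 15 highest by TPM, and the 12 highest shares and 15 widest called gaps in genes at 20 TPM. Per line they were the 2 highest and 1 lowest called in genes at 10 TPM. Others were the 5 highest by TPM and 3 largest called increases in HepG2, and up to 5 per gene list. Alternatives were estimated counts in place of TPM, other gene minimums, other transforms, DESeq2 1.42.0 and leaving out each library. Sequences and coordinates are from GENCODE 29 on GRCh38.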

Additional observations from a re-analysis of the deposited data

How the results depend on the processing

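Of 260 alternative values for 39 results, 190 stayed on their side of the threshold, or for a count within 1.5 times. Of 972 values with a library left out, 928 did. Counted among these as kept were 10 values that changed sign for a line called under neither setting. The division by position, the removal of the 10 most abundant members or of ribosomal protein genes, and the restriction to whole introns were chosen after seeing the data. Members that end before the last coding exon alone gave a spread over lines of 1.36 in the library share, -0.203 points for Caco2, -0.00553 for A549 and -1.04 for HepG2, and 0.455 points for RT4 in the parent gene share. Members that overlap it alone gave -0.736 points for A549 in the library share and 0.789 points for Caco2 in the parent gene share. For the library share, Caco2 was at 0.667 points with short transcripts left out, 0.494 without the 10 most abundant and 0.132 with whole introns alone. A549 was at -0.372 without the 10 most abundant, -0.127 with whole introns alone and -0.626 in estimated counts. HepG2 was at 0.344 with mitochondrial transcripts kept. The calls for these lines were lost under these settings, except that HepG2 passed with members that end before the exon and Caco2 became called in the parent gene share with members that overlap it. The cause of these changes was not tested.

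Counts of members with a different share moved with the gene minimum, with estimated counts and with the number after P in the titles. Over 8 lines 353 of 2950 tested members were called from estimated counts, 237 of 1761 at 20 TPM and 886 of 7528 at 1 TPM. In the main fit 598 of 5150 were called, so the number tested moved as well. The counts per line below come from these tested members, except in HepG2, with 2879 tested from estimated counts and 1432 at 20 TPM. With the number after P and on the log2 scale 5150 were tested. Shares over all transcripts were not computed for these settings. From estimated counts, higher and lower calls were 12 and 12 in SK-Mel 24, 58 and 14 in RT4, 12 and 19 in SK-Mel 28, 185 and 24 in Caco2, 7 and 11 in A549 and 14 and 8 in BJ, with 3 lower in U251, 16 lower in U2-OS and 123 lower in HepG2. At 20 TPM they were 5 and 8 in SK-Mel 24, 1 and 2 in U251, 37 and 9 in RT4, 4 and 11 in SK-Mel 28, 131 and 50 in Caco2, 11 and 12 in U2-OS, 2 and 7 in A549, 7 and 6 in BJ and 350 and 147 in HepG2. At 1 TPM they were 24 and 15 in U251, 152 and 41 in RT4, 49 and 54 in SK-Mel 28 and 60 and 35 in BJ, with 33 higher in SK-Mel 24, 65 higher in U2-OS and 27 higher in A549. With the number after P in the titles, whose meaning the labels do not give, as a covariate they were 7 and 7 in A549, 12 and 4 in SK-Mel 24 and 17 and 10 in SK-Mel 28, with 3 higher in U251 and 63 higher in RT4. On the log2 scale 4 were higher in U251 and 18 in SK-Mel 28.

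With a library left out, the library share of Caco2 ranged from 0.532 (without Caco2 replicate 2) to 0.926 points and that of A549 from -0.853 to -0.662 (without A549 replicate 2), and the parent gene share of RT4 from 0.873 (without RT4 replicate 3) to 1.19. Higher calls ranged from 13 to 28 in SK-Mel 24, 2 to 8 in U251, 38 to 114 in RT4, 124 to 412 in Caco2 and 17 to 60 in BJ. Lower calls ranged from 8 to 55 in SK-Mel 24, 4 to 12 in U251, 14 to 35 in RT4, 14 to 57 in SK-Mel 28, 42 to 134 in Caco2, 9 to 37 in U2-OS, 7 to 39 in A549 and 12 to 41 in BJ. The highest lower counts of both SK-Mel lines and A549 came without Caco2 replicate 3, and those of BJ without BJ replicate 1. Libraries of the 8 lines had 10346 to 14535 members at 1 estimated count or more. Depth was not matched between libraries, and its part in the calls was not tested.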
